A study of Mus musculus with 9 samples.

Results

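The genes described here are 10 genes of the ATF4 branch of the integrated stress response, namely Atf4, Atf5, Ddit3, Trib3, Chac1, Asns, Phgdh, Psat1, Shmt2 and Sesn2, out of 56691 genes in each gene table. The rule lists them by name, with no threshold on measured values, and it was written with earlier results of these data known. All 10 symbols were found and all 10 passed the filter on low counts, which left 16903 genes tested. In BV- cells, NRF1 OE raised Asns and Shmt2, each about 1.30-fold, and no member was called lower, so that 2 of 10 members were called by edgeR where 17.2% of all genes were (called means an adjusted p under 0.05). DESeq2 called 3, Phgdh being added, where it called 23.8% of all genes. In BV+ cells, 0 of 10 members were called where 8.02% of all genes were, with 1 member, Atf4, at an unadjusted p under 0.05 by edgeR, beside 32.5% of all genes, and 0 called by DESeq2, beside 12.5%. Between the sorted populations with NRF1 OE, Asns was lower in BV+ than in BV- cells. Over 14 alternative fits, the Asns call in BV- cells held in 6, the Shmt2 call in 4 and the Asns difference between populations in 11. The 2 Asns calls share the BV- NRF1 OE libraries, so they are not independent. Both held in a fit with an offset in every library for how levels run with GC and length of the transcript. The Shmt2 call did not hold in that fit. That fit also called Atf5 (-0.50) and Sesn2 (-0.37) lower with NRF1 OE in BV+ cells, where it called 12.3% of all genes. It called 5 members rather than 1 lower in BV+ than in BV- cells with NRF1 OE, where it called 26.2% of all genes rather than 13.8%.

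The RNA-seq covered 9 libraries in 4 groups: BV+ cells with NRF1 OE (n = 2), BV+ cells with Ctrl (n = 2), BV- cells with NRF1 OE (n = 3) and BV- cells with Ctrl (n = 2). All came from BVSC mouse PSCs, a reporter line with Blimp1-mVenus (BV) and Stella-CFP, which were differentiated as EBs. The NRF1 OE cells carried mouse Nrf1 cDNA in a modified pInducer20 (p20) vector, and the Ctrl cells carried the empty vector. Both had DOX at 1.5 μg/mL from day 2 to day 5, the Ctrl cells included, and BV+ cells were sorted on day 5 according to the methods of the study. The study does not name the number of clones behind a line, and its methods call the replicates biological, while the labels do not tie them to separate cultures, so p-values measure the spread between these libraries. The comparisons ask how enforced NRF1 expression changes the BV+ and the BV- cells. In bulk RNA of this kind, fewer cells of a type and less RNA per cell cannot be told apart.

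The integrated stress response slows translation when cells lack amino acids, misfold proteins in the ER or lose mitochondrial function. Kinases phosphorylate the initiation factor eIF2, most translation falls, and the Atf4 mRNA is translated more, so the amount of Atf4 mRNA shows only part of ATF4 activity. ATF4, a bZIP transcription factor, then binds C/EBP-ATF response elements and turns on amino acid synthesis and uptake, tRNA charging, and, under lasting stress, genes such as Ddit3 that favour cell death. In pluripotent cells and early germ cells, the serine and one-carbon enzymes of this response feed nucleotide and methyl-group synthesis.

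The promoter windows of the members were searched for the core of the C/EBP-ATF response element, TGATGNAA, and for the core of the NRF1 motif, GCGCATGC, on both strands. RefSeq windows on GRCm38.p6, each of 300 bases around a start site, were found for 10 of 10 members, with 12 windows in all. The response element core was in the windows of Asns, Chac1 and Trib3, and 3.97% of all 32851 windows hold it. The NRF1 core was in the window of Shmt2 alone among the members, and 2.71% of all windows hold it. These stretches are printed because they hold the matches in the members whose changes are described next (Asns and Shmt2) and in the other members with a match. They read 5′ to 3′ on the strand of the gene, and capitals mark the matches.
Asns: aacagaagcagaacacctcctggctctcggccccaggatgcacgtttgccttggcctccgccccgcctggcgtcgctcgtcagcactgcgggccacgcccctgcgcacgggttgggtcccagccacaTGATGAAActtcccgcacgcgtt
Shmt2: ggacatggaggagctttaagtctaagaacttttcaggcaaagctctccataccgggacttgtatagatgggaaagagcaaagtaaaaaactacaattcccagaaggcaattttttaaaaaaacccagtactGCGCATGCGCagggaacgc
Chac1: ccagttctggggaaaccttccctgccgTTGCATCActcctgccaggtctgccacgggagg
Trib3: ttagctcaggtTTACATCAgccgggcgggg
The Asns stretch is at chr6:7693210-7693359 (minus strand) and ends at the base before the start site, and its match begins 23 bases before that site. The Shmt2 stretch is at chr10:127522445-127522594 (minus strand) and also ends before the start site. Its capitals hold overlapping matches on both strands, because GCGCATGC and its reverse complement share bases there, and the match on the gene's own strand begins 19 bases before the start site. The Chac1 stretch is at chr2:119351022-119351081 (plus strand), with a match on the opposite strand that begins 193 bases before the start site. The Trib3 stretch is at chr2:152344028-152344057 (minus strand), with a match on the opposite strand that begins at base 15 of the transcript. A match is a description of these letters and was not tested for binding here.

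Total counts per library ranged from 13702162 to 19625460. Libraries differed in how a gene's level depends on the GC content of its transcript: over 14313 genes, Spearman's rho of GC content with how far a library's log2 CPM departs from the gene's mean lay between -0.560 and -0.465 in the 4 Ctrl libraries. In the NRF1 OE libraries, rho was 0.308 and 0.00650 in BV+ cells and 0.0441, 0.667 and 0.531 in BV- cells. This trend separates NRF1 OE from Ctrl libraries, and BV- NRF1 OE replicates 2 and 3 stand farthest from Ctrl. Nrf1 itself was 119 to 126 CPM in BV- NRF1 OE and 99.1 to 105 CPM in BV- Ctrl (log2 fold change 0.26, adjusted p = 0.0718), and 95.7 to 99.4 CPM in BV+ NRF1 OE and 90.4 to 91.1 CPM in BV+ Ctrl (0.10, adjusted p = 0.489). Nrf1 was thus higher in every NRF1 OE library than in the Ctrl libraries of its population, without passing the test. With NRF1 OE, Nrf1 was lower in BV+ than in BV- cells (log2 difference -0.33, adjusted p = 0.0431), and neither BV+ NRF1 OE library was above both BV- Ctrl libraries. Prdm1, the gene behind the BV reporter, did not separate BV+ from BV- cells (log2 difference 0.05 in Ctrl, adjusted p = 1.00, and 0.00 with NRF1 OE, adjusted p = 0.998), and Dppa3 (Stella) was lower in BV+ than in BV- cells with NRF1 OE (log2 difference -0.65, adjusted p = 0.00536). Of 8 PGC markers, 0 were called between BV+ and BV- cells in Ctrl, where 1.12% of all genes were. With NRF1 OE, 1 PGC marker was called higher in BV+ (Itgb3, log2 difference 1.24, adjusted p = 9.12e-05) and 3 lower, among them Nanos3 (-1.04, 0.00350) and Dppa3. In that comparison 13.8% of all genes were called and 3.85% were called lower in BV+. In Ctrl, Kdr (1.75, 0.00869), Nes (1.94, 0.00869) and Cdh5 (2.09, 0.0383), markers of mesoderm, neuroectoderm and endothelium, were higher in BV+. Their lists did not all follow. The mesoderm sum was higher in BV+ Ctrl (18.9 to 20.4 CPM) than in BV- Ctrl (11.7 to 12.6 CPM), and the neuroectoderm sums overlapped (227 to 237 and 222 to 229 CPM). The blood and endothelium sum was lower (144 to 157 and 161 to 170 CPM), as were Pdgfra (7.47 and 7.86 CPM) and Otx2 (105 and 123 CPM) on average. BV+ and BV- are therefore used here as names of the sort.

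The levels of the members spanned a wide range. On the deposited FPKM scale, which is per transcript length, Asns was the most abundant member at 168 ± 26.2 FPKM (mean ± SD over the 9 libraries). Phgdh followed at 60.2 ± 12.3 FPKM, Psat1 at 58.7 ± 5.98 FPKM, Atf4 at 55.4 ± 4.86 FPKM, Shmt2 at 51.8 ± 7.72 FPKM and Sesn2 at 46.0 ± 6.50 FPKM. The remaining members were lower, with Atf5 at 12.1 ± 1.66 FPKM, Trib3 at 5.65 ± 1.08 FPKM, Chac1 at 3.91 ± 0.546 FPKM and Ddit3 at 3.36 ± 0.378 FPKM. The order of neighbours held in 9 of 9 libraries for Asns over Phgdh, Shmt2 over Sesn2, Sesn2 over Atf5, Atf5 over Trib3 and Trib3 over Chac1. Phgdh was above Psat1 in only 4 of 9 libraries, and Psat1 over Atf4, Atf4 over Shmt2 and Chac1 over Ddit3 each held in 7 of 9, so these neighbours did not differ beyond their spread. The biosynthetic enzymes and Atf4 were therefore well expressed, and Chac1, Trib3 and Ddit3, the members tied to severe stress, were low in all 4 groups.

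**Figure D1:**
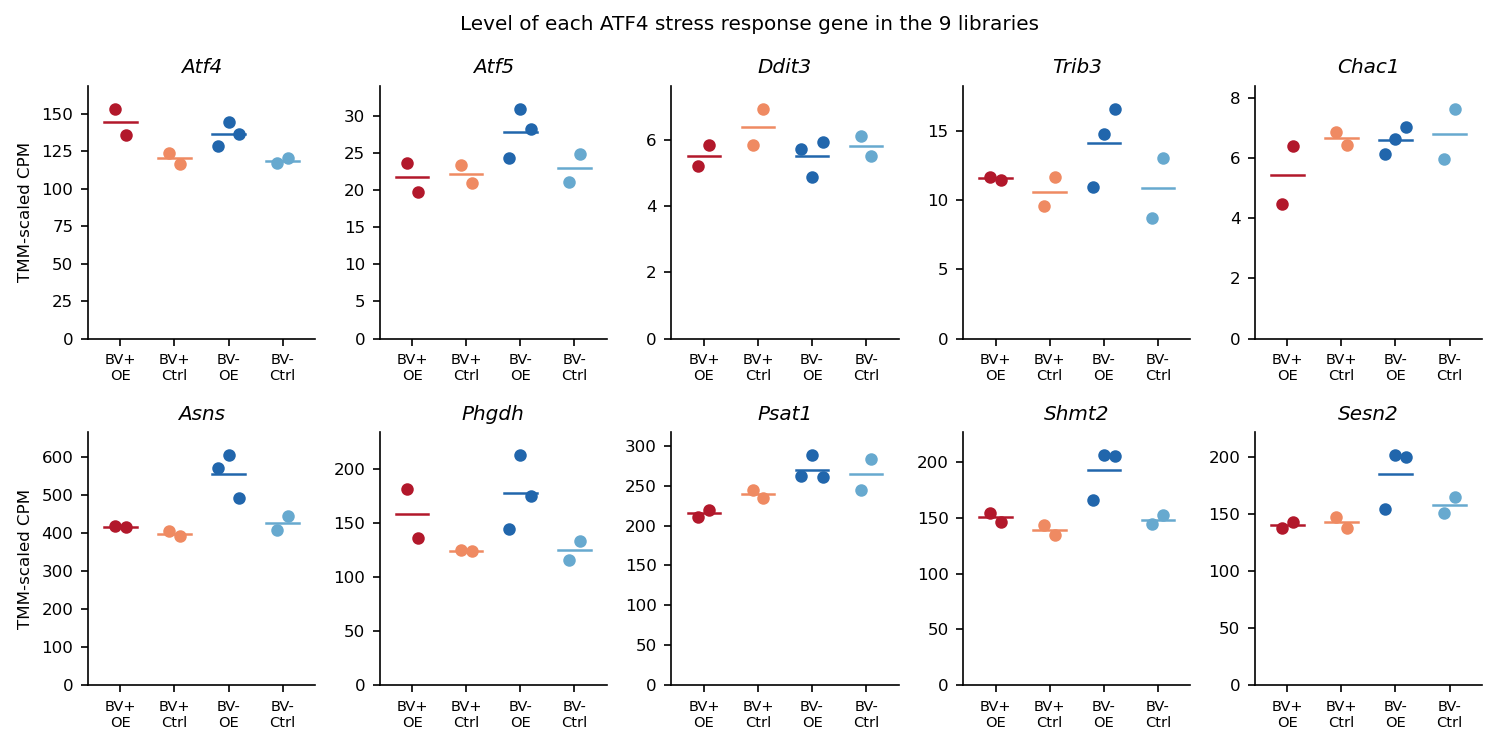
TMM-scaled CPM of each member (y axis, from 0) in the 9 libraries, by group (x axis; OE is NRF1 OE). Points are libraries and lines are group means. The 3 BV- NRF1 OE libraries lie above all other libraries for Asns and for Shmt2, and the Ddit3 libraries all lie between 4.86 and 6.92 CPM.

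Within a gene, libraries were compared in CPM scaled by TMM. Asns, which makes asparagine from aspartate, was 570, 603 and 490 CPM in BV- NRF1 OE replicates 1, 2 and 3, against 408 and 443 CPM in the BV- Ctrl libraries. The BV+ libraries held 418 and 415 CPM with NRF1 OE and 405 and 390 CPM with Ctrl. All 3 BV- NRF1 OE libraries were thus above the other 6 libraries. In BV- cells NRF1 OE gave a mean of 554 ± 57.8 CPM (SD, n = 3) and Ctrl one of 426 ± 24.5 CPM (SD, n = 2), which is a log2 fold change of 0.38 (SE 0.11, 95% CI 0.15 to 0.61, adjusted p = 0.0386). In BV+ cells the log2 fold change was 0.07 (95% CI -0.18 to 0.32, adjusted p = 0.707). The call in BV- cells was lost without BV- NRF1 OE replicate 2 (adjusted p = 0.0642) or replicate 3 (adjusted p = 0.0595) and without BV- Ctrl replicate 1 (adjusted p = 0.313) or replicate 2 (adjusted p = 0.121), while the log2 fold change stayed between 0.29 and 0.46. Without BV- NRF1 OE replicates 2 and 3 together, it was 0.42 (adjusted p = 0.119).

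Shmt2, the mitochondrial enzyme that splits serine into glycine and a one-carbon unit, was 166, 206 and 206 CPM in BV- NRF1 OE and 145 and 152 CPM in BV- Ctrl. In BV+ cells it was 155 and 147 CPM with NRF1 OE and 143 and 135 CPM with Ctrl. The BV- NRF1 OE libraries were again the highest, and replicate 1 of that group was the nearest to Ctrl. The log2 fold change was 0.38 in BV- cells (SE 0.12, 95% CI 0.12 to 0.63, adjusted p = 0.0467) and 0.12 in BV+ cells (95% CI -0.16 to 0.39, adjusted p = 0.530). In BV- cells it passed the test when BV- NRF1 OE replicate 1 was left out (adjusted p = 0.00889) and not when replicate 2 (0.0807), replicate 3 (0.134), BV- Ctrl replicate 1 (0.322) or BV- Ctrl replicate 2 (0.143) was left out. Without BV- NRF1 OE replicates 2 and 3 the log2 fold change was 0.16 (adjusted p = 0.467).

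Phgdh, which opens serine synthesis from a glycolytic intermediate, had the largest log2 fold change of the members in both populations in the fit without offsets and passed edgeR's test in neither. With offsets it was at -0.03 in BV+ and 0.08 in BV- cells, and without BV+ NRF1 OE replicate 1 it was at 0.13 in BV+ cells. It was 145, 213 and 176 CPM in BV- NRF1 OE and 116 and 134 CPM in BV- Ctrl, with the lowest NRF1 OE library close to the highest Ctrl library (log2 fold change 0.51, 95% CI 0.14 to 0.87, adjusted p = 0.0541). In BV+ cells it was 182 and 136 CPM with NRF1 OE and 125 and 125 CPM with Ctrl (0.35, 95% CI -0.05 to 0.74, adjusted p = 0.197). The NRF1 OE libraries of each population were spread much more widely for Phgdh than the Ctrl libraries of BV+ cells, which nearly coincided. In BV- cells DESeq2 called Phgdh (0.50, adjusted p = 0.0273), as did edgeR without a filter on low counts (0.50, 0.00232) or without BV- NRF1 OE replicate 1 (0.63, 0.0134). By edgeR, Phgdh was at 0.33 without BV- NRF1 OE replicate 2 (adjusted p = 0.0926) and at 0.21 without replicates 2 and 3 together.

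Psat1, the aminotransferase of the next step of serine synthesis, did not pass the test in either population. It was 262, 288 and 261 CPM in BV- NRF1 OE and 245 and 284 CPM in BV- Ctrl, which overlap (log2 fold change 0.03, 95% CI -0.19 to 0.25, adjusted p = 0.844). In BV+ cells it was 211 and 220 CPM with NRF1 OE, below the 245 and 235 CPM with Ctrl (-0.16, 95% CI -0.40 to 0.09, adjusted p = 0.335). Part of the Psat1 locus overlaps a processed pseudogene, so its counts are uncertain to that extent.

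Among the transcription factors, Atf4 was higher with NRF1 OE in each population without passing the test, and with offsets for GC content and length its direction turned in both (-0.05 in BV+ and -0.16 in BV- cells, on the log2 scale). It was 153 and 136 CPM in BV+ NRF1 OE and 124 and 117 CPM in BV+ Ctrl (log2 fold change 0.26, 95% CI 0.02 to 0.51, unadjusted p = 0.0378, adjusted p = 0.133). In BV- cells it was 129, 145 and 137 CPM with NRF1 OE and 117 and 120 CPM with Ctrl (0.20, 95% CI -0.02 to 0.43, adjusted p = 0.164). No NRF1 OE library overlapped the Ctrl libraries of its population. Atf5, a related factor that acts in the mitochondrial unfolded protein response, was 24.3, 30.9 and 28.2 CPM in BV- NRF1 OE and 21.1 and 24.8 CPM in BV- Ctrl (0.27, adjusted p = 0.192). In BV+ cells it was 23.7 and 19.8 CPM with NRF1 OE and 23.4 and 20.9 CPM with Ctrl (-0.03, adjusted p = 0.921). Atf5 groups overlapped in both populations. In the fit with offsets Atf5 was at -0.17 in BV- (adjusted p = 0.293) and -0.50 in BV+ cells (adjusted p = 0.0177). The Atf5 gene overlaps Nup62 and Il4i1 on the other strand in the GRCm38 annotation.

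Ddit3 encodes CHOP, the factor linked to cell death after unresolved stress. It was among the lowest members, at 5.72, 4.86 and 5.92 CPM in BV- NRF1 OE and 6.11 and 5.50 CPM in BV- Ctrl (log2 fold change -0.07, 95% CI -0.47 to 0.33, adjusted p = 0.794). In BV+ cells it was 5.20 and 5.82 CPM with NRF1 OE and 5.83 and 6.92 CPM with Ctrl (-0.21, 95% CI -0.64 to 0.21, adjusted p = 0.453), so the BV+ groups only just did not overlap. The log2 fold change in BV+ cells was -0.33 without BV+ Ctrl replicate 1 and -0.08 without BV+ Ctrl replicate 2. The lowest count behind the Ddit3 values was 66 reads. The tables hold 2 records named Ddit3. The values here are of ENSMUSG00000025408, and the other record had 0 counts in all 9 libraries, which allows a level of up to 0.155 to 0.221 CPM (3 counts per library, counting error only). The records overlap by 2925 bases in the GRCm38 annotation, so reads could have been left uncounted between them and the level of Ddit3 is uncertain.

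The other effectors were mixed. Trib3, a pseudokinase that feeds back on ATF4 and AKT, was 10.96, 14.8 and 16.6 CPM in BV- NRF1 OE and 8.70 and 13.0 CPM in BV- Ctrl (log2 fold change 0.37, 95% CI -0.09 to 0.84, adjusted p = 0.214). This value rests on single libraries, at 0.12 without BV- Ctrl replicate 1 and 0.68 without BV- Ctrl replicate 2, and it was at -0.05 with offsets. In BV+ cells it was 11.6 and 11.5 CPM with NRF1 OE and 9.57 and 11.6 CPM with Ctrl (0.12, adjusted p = 0.736), and its groups overlapped in both populations. Chac1, which degrades glutathione, was 6.14, 6.63 and 7.05 CPM in BV- NRF1 OE and 5.99 and 7.64 CPM in BV- Ctrl (-0.05, adjusted p = 0.875). In BV+ cells Chac1 was 4.48 and 6.42 CPM with NRF1 OE and 6.88 and 6.45 CPM with Ctrl (-0.29, 95% CI -0.77 to 0.19, adjusted p = 0.361), where the nearest libraries of the groups nearly coincided. It was at -0.05 without BV+ NRF1 OE replicate 1 and at -0.57 without replicate 2. Sesn2, a sestrin that restrains mTORC1 when leucine is short, was 154, 202 and 200 CPM in BV- NRF1 OE and 151 and 165 CPM in BV- Ctrl, where replicate 1 lay among the Ctrl libraries and the other two above them (0.23, adjusted p = 0.198). Without that replicate the log2 fold change was 0.34 (adjusted p = 0.0190). It was 0.14 without replicate 2 (adjusted p = 0.464) and 0.17 without replicate 3 (adjusted p = 0.451), and its direction turned with offsets (-0.14, adjusted p = 0.327). In BV+ cells Sesn2 was 138 and 144 CPM with NRF1 OE and 148 and 138 CPM with Ctrl (-0.02, adjusted p = 0.937). Sesn2 overlaps Gm12981 by 6089 bases in the GRCm38 annotation.

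Over the members, the median log2 fold change of NRF1 OE was 0.02 in BV+ cells beside 0.04 over all genes tested, with 5 members higher and 5 lower. In BV- cells it was 0.25 beside 0.01, with 8 members higher and 2 lower. Groups did not overlap for 4 members that were higher and 3 that were lower in BV+ NRF1 OE, where 38.1% of all genes were higher and 32.0% lower in this way. In BV- NRF1 OE this held for 4 members that were higher and 0 that were lower, beside 29.4% and 27.6% of all genes. At the study's own threshold, an unadjusted p under 0.05 with a log2 fold change past 0.58 in size, 0 of 10 members passed in either population, where 17.0% of all genes did in BV+ cells and 16.0% in BV- cells. In BV- cells 10.2% of all genes were called higher at the adjusted threshold, which is the share to read beside the 2 of 10 members.

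**Figure D2:**
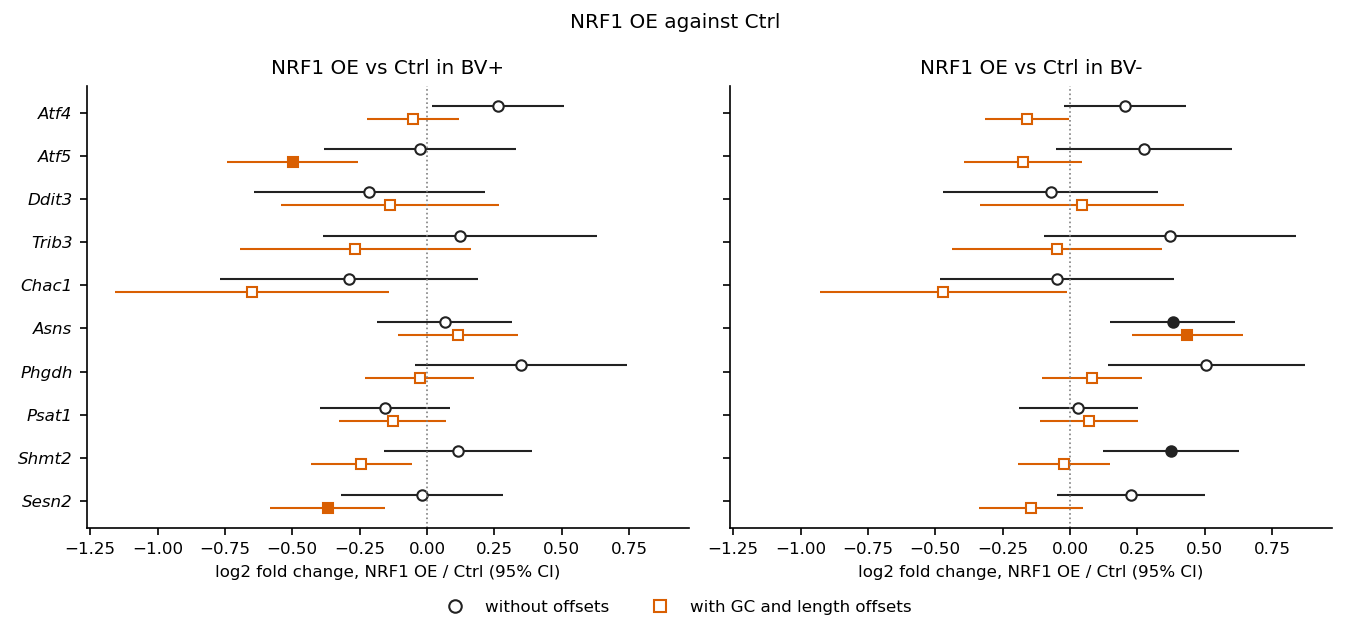
Log2 fold change of each member with NRF1 OE against Ctrl (x axis) in BV+ cells (left) and BV- cells (right), with 95% CI, without (circles) and with (squares) offsets for GC content and transcript length; filled symbols have an adjusted p under 0.05. Asns in BV- cells is filled in both fits, at 0.38 and 0.44, while Shmt2 moves from 0.38 to -0.02. Intervals with offsets use the degrees of freedom of the fit without offsets, so they are approximate.

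The members' changes were then read against GC content, since the libraries differ in their trend over it. The transcripts of 6 members lie between 55% and 60% GC and Atf5 lies at 61.7%, above the median of 49.8% over all genes tested, while Asns (47.7%), Psat1 (48.4%) and Ddit3 (45.6%) lie below it. In BV- cells the median log2 fold change of all genes rose from -0.57 in transcripts of at most 40% GC to 0.43 in those above 60%. Shmt2 (57.4% GC) was at 0.38, beside a median of 0.37 for genes between 55% and 60% GC. Asns was at 0.38, beside a median of -0.14 and quartiles of -0.41 and 0.12 for genes between 45% and 50% GC. In BV- cells 8 of 10 members lay within the quartiles of their GC range, with Asns above and Chac1 below them. In BV+ cells 7 lay within and Atf5, Chac1 and Sesn2 lay below.

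**Figure D3:**
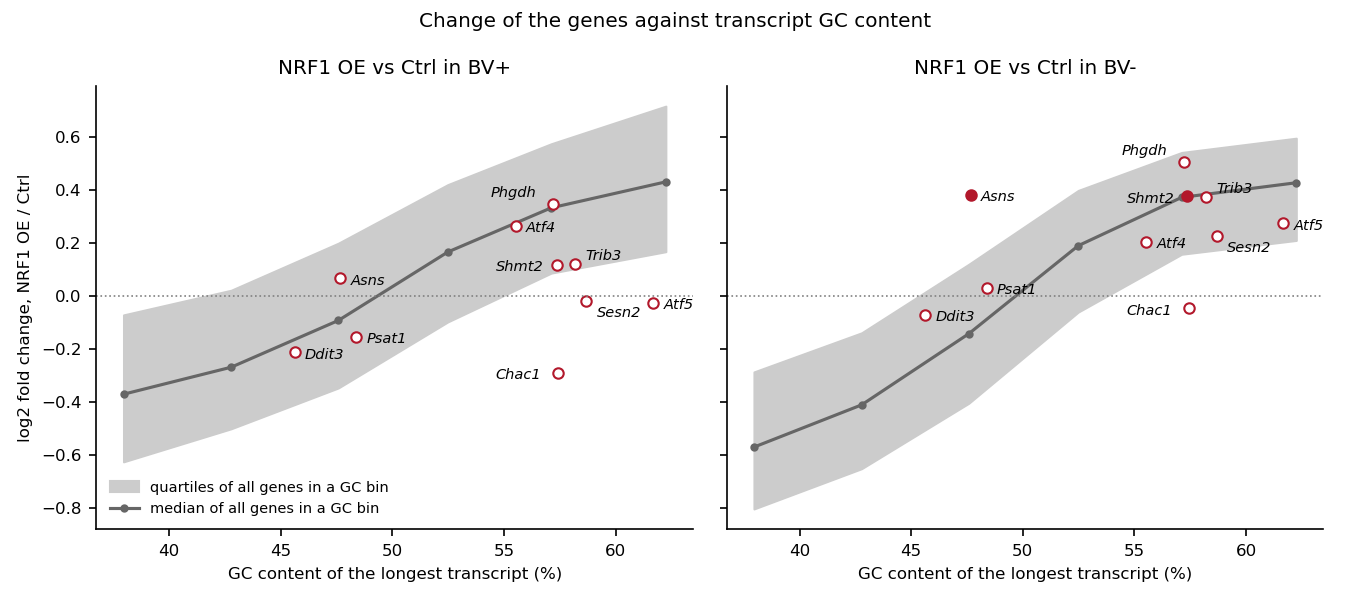
Log2 fold change with NRF1 OE (y axis) against GC content of the longest transcript (x axis, %) in BV+ cells (left) and BV- cells (right). Red points are members (filled: adjusted p under 0.05), and the grey line and band are the median and quartiles of all genes in a GC range. Shmt2 lies on the line in BV- cells and Asns lies above the band.

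With these trends over GC content and length entered as offsets, 1 of 10 members was called in BV- cells, where 6.16% of all genes were. This was Asns, with a log2 fold change of 0.44 (adjusted p = 0.0291). Shmt2 was then at -0.02 (adjusted p = 0.892), Phgdh at 0.08 (0.581), Atf4 at -0.16 (0.176), Sesn2 at -0.14 (0.327) and Chac1 at -0.47 (0.179). In BV+ cells 2 of 10 members were called, both lower with NRF1 OE, where 12.3% of all genes were called. They were Atf5 at -0.50 (adjusted p = 0.0177) and Sesn2 at -0.37 (0.0318), and Chac1 was at -0.65 (0.0816). The members' median with offsets was -0.19 in BV+ cells and -0.04 in BV- cells. Whether the trend is technical or follows from NRF1 OE was not tested, and since it goes with the groups, the parts cannot be told apart.

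The sorted populations were compared within Ctrl and within NRF1 OE, and the latter comparison shares its libraries with those above. In Ctrl, 0 of 10 members were called, where 1.12% of all genes were, and 0 members had an unadjusted p under 0.05, beside 7.77% of all genes. DESeq2 also called 0, beside 1.79%. With offsets 0 were called as well, beside 1.65% of all genes, and 0 passed the study's threshold, beside 5.74%. Libraries did not overlap for 4 members, all lower in BV+ (Asns, Psat1, Shmt2 and Sesn2), where 25.4% of all genes were lower and 22.6% higher in this way. The log2 differences, BV+ against BV-, ran from -0.15 for Sesn2 to 0.14 for Ddit3. With NRF1 OE, 1 of 10 members was called, where 13.8% of all genes were called and 3.85% were called lower in BV+. This was Asns, at 416 ± 2.21 CPM (SD, n = 2) in BV+ and 554 ± 57.8 CPM (SD, n = 3) in BV- cells, a log2 difference of -0.41 (95% CI -0.64 to -0.18, adjusted p = 0.0238). The call was lost without BV+ NRF1 OE replicate 1 (adjusted p = 0.129) or replicate 2 (adjusted p = 0.0978) and held without any one of the BV- NRF1 OE libraries.

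Next to Asns, 4 members had every BV+ NRF1 OE library below every BV- NRF1 OE library without passing the test: Sesn2 (log2 difference -0.39, adjusted p = 0.0612), Shmt2 (-0.35, 0.0650), Atf5 (-0.35, 0.145) and Psat1 (-0.33, 0.0552). Together with Asns this makes 5 of 10 members, where 19.5% of all genes were lower in BV+ in this way, and 0 members were higher, where 20.3% of all genes were. At the study's threshold 0 members passed, where 14.7% of all genes did. Chac1 (-0.28), Trib3 (-0.29) and Phgdh (-0.16) overlapped, Ddit3 was at -0.00, and Atf4 was the only member above zero, at 0.08 (adjusted p = 0.659). The members' median difference was -0.31, beside -0.00 over all genes tested. With offsets the 5 members were called, where 26.2% of all genes were, with Sesn2 at -0.43, Asns at -0.41, Atf5 at -0.36, Psat1 at -0.35 and Shmt2 at -0.33.

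**Figure D4:**
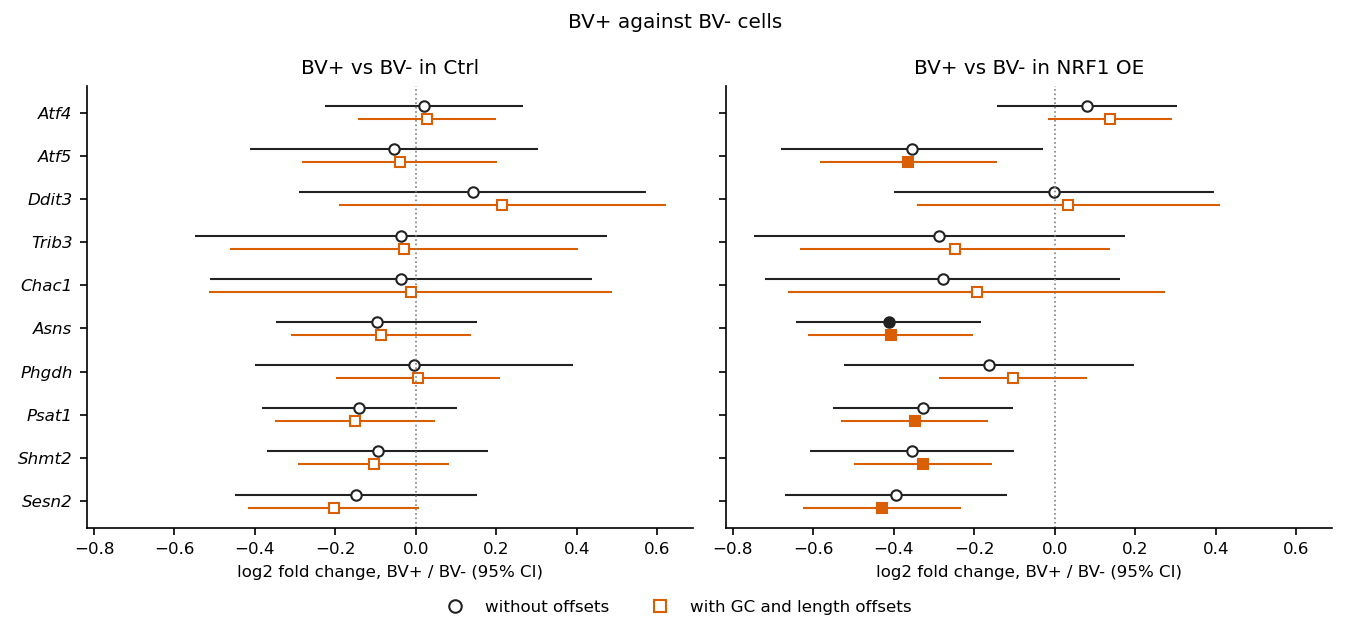
Log2 difference of each member between BV+ and BV- cells (x axis; below 0 is lower in BV+) in Ctrl (left) and with NRF1 OE (right), with 95% CI, without (circles) and with (squares) offsets for GC content and transcript length; filled symbols have an adjusted p under 0.05. With NRF1 OE, 9 of 10 members lie below 0 without offsets, and in Ctrl all intervals without offsets include 0. Intervals with offsets use the degrees of freedom of the fit without offsets, so they are approximate.

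A test of whether the NRF1 OE effect differed between BV+ and BV- cells called 0 of 10 members and 0% of all genes by edgeR, with or without offsets, with 0 members and 932 genes at an unadjusted p under 0.05 in the fit without offsets, and DESeq2 called 23 genes. At the study's threshold 0 members passed, where 4.48% of all genes did. In the fit without offsets Asns had the largest difference of effects among the members, at -0.31 (95% CI -0.65 to 0.02, unadjusted p = 0.0656, adjusted p = 0.935). In the fit with offsets Atf5 (-0.324, adjusted p = 0.558) and Asns (-0.321, adjusted p = 0.524) were nearly equal. The effect on Asns in BV- cells is therefore not shown to differ from that in BV+ cells.

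The other genes of the pathway were described from lists chosen by role. With NRF1 OE, 13.8% of all genes were called between BV+ and BV- cells, and 3.85% were called lower in BV+. Of 19 eIF2 kinases, phosphatase subunits and eIF2B genes, 4 were called higher and 1 lower in BV- NRF1 OE, where 17.2% of all genes were called, and 0 in BV+ NRF1 OE, where 8.02% were. They include Eif2b2, a subunit of the eIF2 exchange factor (log2 fold change 0.49, adjusted p = 0.0436), Gcn1, the activator of the amino acid sensing kinase GCN2 (0.43, 0.0354), and Dnajc3, an inhibitor of the kinase PERK (-0.56, 0.0469). With offsets Gcn1 was at 0.28 (0.0437), Eif2b2 at 0.12 (0.472) and Dnajc3 at -0.13 (0.422). The list's median was -0.09 in BV- and -0.02 in BV+ cells.

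Of 17 serine, one-carbon and amino acid synthesis genes outside the members, 3 were called in BV- NRF1 OE, all higher, where 17.2% of all genes were called and 10.2% were higher, and 0 were called in BV+ NRF1 OE, where 8.02% were. The 3 include Amt, of the glycine cleavage system (log2 fold change 0.64, adjusted p = 0.0317), and Cbs, which starts transsulfuration (0.55, 0.0451). Amt (0.55, adjusted p = 0.0291) and Cbs (0.67, 0.0371) were also called with offsets. The list's median in BV- cells was 0.23, and 0.02 with offsets. Between BV+ and BV- cells with NRF1 OE, 2 of these genes were called, both lower in BV+: Shmt1, the cytosolic counterpart of Shmt2 (-0.36, adjusted p = 0.0269), and Gldc, of the glycine cleavage system (-0.32, 0.0427). The fit with offsets called 6 lower and 0 higher, beside 26.2% of all genes called.

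Of 11 amino acid transporters, 1 was called in BV- NRF1 OE, Slc7a5, the large neutral amino acid transporter (log2 fold change 0.42, adjusted p = 0.0338), beside 17.2% of all genes called, and it was at 0.09 with offsets (0.414). In BV+ NRF1 OE 0 were called, beside 8.02% of all genes, but with offsets 4 were called lower, beside 12.3% of all genes, and the list's median was -0.26. In BV+ against BV- cells with NRF1 OE, 2 transporters were lower and 1 higher, and with offsets 6 were lower and 0 higher, beside 26.2% of all genes called. Slc7a5 was 342 ± 8.57 CPM (SD, n = 2) in BV+ and 512 ± 48.1 CPM (SD, n = 3) in BV- cells with NRF1 OE, a log2 difference of -0.58 (adjusted p = 0.00368). Slc7a3, a cationic amino acid transporter, was also lower in BV+ (-0.55, 0.00806), and Slc36a4 was higher (0.88, 0.0428), a call that was lost with offsets (0.51, 0.0865). Of 20 cytosolic tRNA synthetases, 3 were called higher and 1 lower in BV- NRF1 OE, beside 17.2% of all genes called, with Vars at 0.57 (adjusted p = 0.0317), Qars at 0.50 (0.0381) and Farsa at 0.42 (0.0378). Qars (0.41, 0.0479) and Farsa (0.41, 0.0306) kept a call with offsets. Between BV+ and BV- cells with NRF1 OE, 4 synthetases were called, all lower in BV+, among them Farsa (-0.48, 0.0165), Yars (-0.38, 0.0385) and Aars (-0.36, 0.0310). The fit with offsets called 9 lower and 0 higher, beside 26.2% of all genes called.

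Of 16 tested ATF4 partners and effectors, 3 were called higher and 2 lower in BV- NRF1 OE, beside 17.2% of all genes called, and 1 was higher and 1 lower in BV+ NRF1 OE, beside 8.02%. Ddit4, a stress-induced inhibitor of mTORC1, was called in both populations, at 0.52 in BV- (adjusted p = 0.0435) and 0.64 in BV+ cells (0.0396), and in neither with offsets (0.08, 0.668 and 0.25, 0.150). Pmaip1, which encodes the pro-apoptotic BH3 protein NOXA, fell in BV- NRF1 OE (-0.82, 0.0317) and was also lower with offsets (-0.47, 0.0389). Pmaip1 was 14.4 ± 1.77 CPM (SD, n = 3) in BV- NRF1 OE and 47.6 ± 0.854 CPM (SD, n = 2) in BV+ NRF1 OE (log2 difference 1.72, adjusted p = 1.00e-05). Cebpg, a bZIP partner of ATF4, fell in BV- NRF1 OE (-0.60, 0.0392; -0.20 with offsets, 0.186), and Nupr1, a stress-induced chromatin protein, fell in BV+ NRF1 OE (-0.97, 0.0311; -1.03 with offsets, 0.0127). With NRF1 OE, 3 of the 16 were called higher in BV+ than in BV- cells and 2 lower, beside 13.8% of all genes called. The higher ones were Pmaip1, Vldlr (1.31, 0.00225) and Ddit4 (0.60, 0.0185). The lower ones, named after their values were seen, were Bbc3, which encodes the pro-apoptotic BH3 protein PUMA (-0.56, 0.0164), and Eif4ebp1, a repressor of cap-dependent translation (-0.46, 0.0289). All 5 were also called with offsets.

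The neighbouring stress pathways showed calls in both directions. Of 20 ER chaperone genes of ATF6 and XBP1, 2 were called higher and 2 lower in BV- NRF1 OE, beside 17.2% of all genes called. Sec61b was at 0.45 (adjusted p = 0.0450), Canx at -0.49 (0.0435) and Pdia3 at -0.48 (0.0352). In BV+ NRF1 OE 1, Sec61b, was called higher (0.64, 0.0319), beside 8.02% of all genes called. Of 14 tested p53 targets, 1 was called higher and 2 lower in BV- NRF1 OE, beside 17.2% of all genes called. Bax was at 0.52 (0.0317), Trp53inp1 at -0.84 (0.0411) and Eda2r at -0.58 (0.0400). In BV+ NRF1 OE 1, Btg2, was called higher (0.67, 0.0208), beside 8.02% of all genes called. With offsets Pdia3 (-0.35, 0.0328) and Btg2 (0.63, 0.00633) kept their calls and the others named here did not. In BV+ against BV- cells with NRF1 OE, 3 p53 targets were called higher and 3 lower, beside 13.8% of all genes called, with Perp, a desmosomal membrane protein, at 1.23 (0.00707), Btg2, an antiproliferative protein, at 0.93 (0.000341) and Plk2, a kinase, at 0.51 (0.0202). With offsets 4 were higher and 5 lower, beside 26.2%. The counts of the 7 lists between BV+ and BV- cells with NRF1 OE also moved when single libraries were left out. In some of those fits, all calls were lost in the tRNA synthetase list and in the serine, one-carbon and amino acid synthesis list. In Ctrl, the only gene of these 7 lists called between BV+ and BV- cells without offsets was Pmaip1, higher in BV+ (1.00, 0.00667), beside 1.12% of all genes called. It was also called with offsets (0.97, 0.00126), as was 1 p53 target, higher in BV+, beside 1.65% of all genes. The Pmaip1 call in Ctrl did not hold in every fit that left out a single library. The counts of all 7 lists in BV- cells moved with single libraries: each was 0 without BV- NRF1 OE replicate 3 or without either BV- Ctrl library, and each was larger without BV- NRF1 OE replicate 1 (to 13 for the tRNA synthetases and 11 for the eIF2 list). The calls in BV+ cells were also lost, with 0 in each list without BV+ NRF1 OE replicate 1 or without either BV+ Ctrl library.

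**Figure D5:**
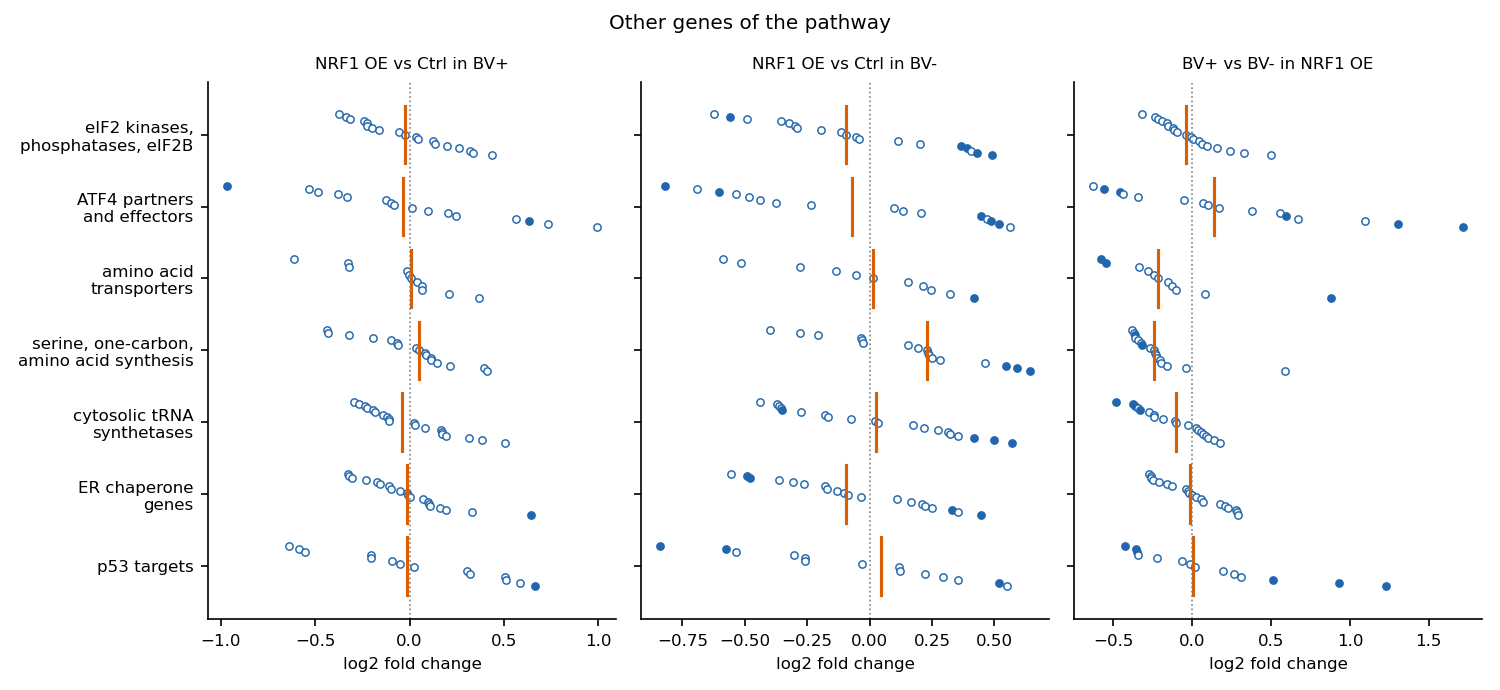
Log2 fold change (x axis) of each gene of 7 pathway lists (rows) for NRF1 OE against Ctrl in BV+ cells (left) and in BV- cells (middle), and for BV+ against BV- cells with NRF1 OE (right). Points are genes (filled: adjusted p under 0.05) and orange lines are list medians, and the x axes differ between panels. The list of serine, one-carbon and amino acid synthesis has its median at 0.23 in the middle panel and at -0.24 in the right panel.

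Markers of cell types moved between the groups that differ in Asns. The summed level of 8 pluripotency markers was 4248 to 4432 CPM in BV- NRF1 OE, 3805 to 3970 CPM in BV- Ctrl, 3395 to 3596 CPM in BV+ Ctrl and 3083 to 3416 CPM in BV+ NRF1 OE. It was thus highest in the group with the highest Asns. In BV+ cells the sums overlapped and the lowest was with NRF1 OE. Asns there averaged 416 CPM with NRF1 OE and 398 CPM with Ctrl, a difference that was not called. In BV- NRF1 OE, 2 of these markers were called higher and 2 lower, beside 17.2% of all genes called. Of the sum, Pou5f1 averaged 1249 CPM in BV- NRF1 OE and 998 CPM in BV- Ctrl and Dppa5a 1112 and 924 CPM, neither of them called and both named after their values were seen, while Zfp42 was called lower, at 265 and 382 CPM. The summed level of 8 PGC markers was 454 to 547 CPM in BV- NRF1 OE, 387 to 394 CPM in BV- Ctrl, 370 to 376 CPM in BV+ Ctrl and 408 to 410 CPM in BV+ NRF1 OE, with 5 called higher and 0 lower in BV- NRF1 OE against Ctrl, beside 10.2% of all genes called higher. With offsets 2 were called higher. From BV- Ctrl to BV- NRF1 OE, the 8 endoderm markers went from 138 to 207 CPM to 68.0 to 117 CPM and the 8 mesoderm markers from 11.7 to 12.6 CPM to 6.11 to 7.10 CPM, with Cubn (log2 fold change -1.07, adjusted p = 0.0317), Gata6 (-1.08, 0.0419) and Pdgfra (-1.29, 0.0317) called lower. These sums rest mostly on single genes, since Cubn averaged 145 CPM in BV- Ctrl and 69.3 CPM in BV- NRF1 OE, and Pdgfra 7.86 and 3.20 CPM. Cubn was not called with offsets (-0.56, 0.177). The endoderm markers summed to 35.4 to 36.5 CPM in BV+ NRF1 OE and 68.0 to 117 CPM in BV- NRF1 OE, and the mesoderm markers to 24.8 to 37.1 CPM and 6.11 to 7.10 CPM. Again single genes made up most of both differences, with Cubn at 22.6 and 69.3 CPM and Kdr at 21.3 and 1.60 CPM on average. The 6 neuroectoderm markers summed to 271 to 290 CPM in BV+ NRF1 OE and 199 to 244 CPM in BV- NRF1 OE, and the 6 blood and endothelium markers to 116 to 156 CPM and 159 to 173 CPM. In BV+ against BV- cells with NRF1 OE, where 13.8% of all genes were called, 2 of the tested mesoderm markers were called higher in BV+, Kdr (log2 difference 3.73, adjusted p = 3.54e-06) and Hand1 (4.11, 0.000323), 4 endoderm markers were called lower, 2 neuroectoderm markers were called higher and 1 lower, and 2 blood and endothelium markers were called higher. The mesoderm markers Mixl1 and Mesp1 and the blood markers Gata1 and Hbb-bh1 were below the filter on low counts. Markers also moved with NRF1 OE in BV+ cells, where 8.02% of all genes were called. Kdr (1.49, 0.0125), Nes (1.60, 0.0134) and Cdh5 (1.59, 0.0204) were called higher there, and Cubn (-1.59, 0.0127) and Pdgfra (-1.17, 0.0174) lower. The PGC markers Itgb3 (1.02, 0.0124) and Dppa3 (0.64, 0.0252) were also called higher. The pluripotency markers Zfp42 (-0.67, 0.0404) and Klf4 (-0.67, 0.0472) were called lower. Each of these PGC and pluripotency calls held with offsets. The blood and endothelium sums, which include Cdh5, overlapped (116 to 156 CPM with NRF1 OE and 144 to 157 CPM in Ctrl). The endoderm markers summed to 79.2 to 92.8 CPM in BV+ Ctrl and 35.4 to 36.5 CPM in BV+ NRF1 OE. The part of these shifts in the members' differences was not tested.

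For the 3 members whose group means ranged most widely, the genes with the closest profile over the 9 libraries were found by the root mean square difference of centred log2 CPM. For Asns they were Lrpap1 (0.051), Zswim7 (0.051) and Tfap2c (0.053), the last of which is a PGC transcription factor. For Phgdh they were Nkain1 (0.050), Scamp5 (0.055) and Klhdc3 (0.059). For Shmt2 they were Polrmt (0.028), the mitochondrial RNA polymerase, Tonsl (0.033) and Gatad2a (0.036). Among the members themselves, Shmt2 and Sesn2 were the closest pair (0.082), and the closest member to Asns was Shmt2 (0.13).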

How the data were processed

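RNA-seq was measured in 9 libraries of BV+ and BV- cells with NRF1 OE or Ctrl. Per the labels and the study's methods, the authors trimmed reads with Cutadapt 1.9.1, dropped reads under 75 bp, checked them with FastQC 0.10.1, aligned them to GRCm39 (Ensembl 107) with HISAT2 2.0.1 and counted them per gene with HTSeq 0.6.1. The strand setting is not given in the sources used here, so overlapping and antisense genes are uncertain. The authors deposited raw counts per gene and library. The authors also deposited FPKM values per gene and library, used here only to order levels between genes.

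The counts were fitted in edgeR 4.0.16 (R 4.3.3) with TMM scaling, filterByExpr, the quasi-likelihood F test over all 9 libraries and Benjamini-Hochberg adjustment over the 16903 genes tested, two-sided, and a gene was called at an adjusted p under 0.05. The biological coefficient of variation was 0.129. CPM is scaled by TMM. GC content and length came from the longest GRCm38 transcript, known for 98.6% of the genes tested, and the offsets were splines with 5 degrees of freedom for each. Alternatives were DESeq2 1.42.0, other size factors, no filter on low counts, fewer libraries, the offsets, the replicate number as a term and the study's threshold. The rule for named genes took all members, up to 3 called genes of each list and comparison with the largest change, and the 3 genes closest in profile to each of 3 members. Not every gene it took is printed, 1 is not reported here, and genes named after their values were seen are marked as such. The members and lists were chosen with earlier results of these data known.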

Additional observations from a re-analysis of the deposited data

How the results depend on the processing

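Total counts of 13702162 to 19625460 left 66 to 143 reads per library for Ddit3 and Chac1, the members with the fewest reads, while Trib3 had the largest standard error in each NRF1 OE comparison (0.23 in BV+ and 0.21 in BV- cells). The Asns rise in BV- cells kept its direction in 14 of 14 alternatives and its call in 6, with adjusted p from 0.0122 to 0.313. The Asns difference between BV+ and BV- cells with NRF1 OE kept its direction in 14 of 14 and its call in 11, with adjusted p from 0.00603 to 0.129. The Shmt2 rise in BV- cells kept its call in 4 of 14, with adjusted p from 0.00889 to 0.892. The causes of the moves listed next were not tested. Where a count of members stands there without the count of all genes called in the same fit, it is not read as a result about the members.

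Whether replicate numbers pair the libraries could not be settled, because deviations from the mean of a group of 2 libraries mirror each other. Over 12 same-numbered pairs the correlation of deviations ran from -0.295 to 0.243 and 2 were over 0.1. Both were of BV- NRF1 OE with BV- Ctrl (0.204 for replicates 1 and 0.243 for replicates 2). Of 18 pairs with different numbers, 9 were over 0.1. With the replicate block, 3 genes were called for NRF1 OE in BV+ cells, 0 genes and 0 members in BV- cells, 121 genes between BV+ and BV- in Ctrl and 1064 with NRF1 OE, and Ddit3 in the last comparison was at 0.054. With the replicate block and offsets for GC content and length together, 889 genes and 1 member were called for NRF1 OE in BV+ cells, with Atf4 at -0.051, Trib3 at -0.25, Phgdh at -0.025 and Shmt2 at -0.24. In BV- cells, the block and offsets called 3 genes and 0 members, with Atf4 at -0.17, Atf5 at -0.18, Trib3 at -0.17, Shmt2 at -0.076 and Sesn2 at -0.20. Between BV+ and BV- cells, the block and offsets put Phgdh at 0.0057 in Ctrl and Ddit3 at 0.11 with NRF1 OE, where 3 members were called, and 1 gene was called for the difference of effects.

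With the offsets alone, 2071 genes and 2 members were called for NRF1 OE in BV+ cells, with Atf4 at -0.052, Trib3 at -0.27, Phgdh at -0.026 and Shmt2 at -0.24. In BV- cells they called 1042 genes and 1 member, with Atf4 at -0.16, Atf5 at -0.17, Ddit3 at 0.044, Trib3 at -0.049, Shmt2 at -0.022 and Sesn2 at -0.14. Between BV+ and BV- cells they put Phgdh at 0.00496 in Ctrl and Ddit3 at 0.034 with NRF1 OE, where 4431 genes and 5 members were called. In the fit without them, the counts of genes called were 1355, 2910, 190, 2325 and 0 for NRF1 OE in BV+ and in BV- cells, BV+ against BV- in Ctrl and with NRF1 OE, and the difference of effects.

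DESeq2 called 2106 genes in BV+ cells, 4025 genes and 3 members (Asns, Shmt2 and Phgdh) in BV- cells, 303 in the Ctrl comparison and 23 for the difference, and 2 members between BV+ and BV- with NRF1 OE. Without a filter on low counts, 3440, 4392 and 529 genes were called in the first 3 comparisons and 108 for the difference, 3 members were called in BV- cells and 2 between BV+ and BV- with NRF1 OE, and Phgdh was at 0.012 in the Ctrl comparison. At the study's threshold, 2870 genes passed in BV+ cells, 971 in the Ctrl comparison and 757 for the difference, with 0 members in BV- cells and 0 between BV+ and BV- with NRF1 OE. With library size alone, 3141 genes and 1 member were called in BV- cells, where Psat1 was at -0.0064. Phgdh was then at 0.021 in the Ctrl comparison and Ddit3 at 0.024 between BV+ and BV- with NRF1 OE. With only the groups compared in the fit, 4371 genes were called in BV+ cells, 0 genes and 0 members in BV- cells, 890 genes in the Ctrl comparison, where Phgdh was at 0.00356, and 1260 genes and 0 members between BV+ and BV- with NRF1 OE, where Ddit3 was at 0.034. Leaving out BV- NRF1 OE replicates 2 and 3, chosen after seeing the data, 28 genes and 0 members were called in BV- cells, with Psat1 at -0.017 and Sesn2 at -0.038, and between BV+ and BV- with NRF1 OE Trib3 was at 0.073 and Phgdh at 0.13.

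Leaving out each library in turn gave 0 to 2028 genes called in BV+ cells, with Atf5 from -0.16 to 0.10, Trib3 from -0.0083 to 0.27, Chac1 from -0.57 to -0.049, Phgdh from 0.13 to 0.54 and Sesn2 from -0.065 to 0.031. In BV- cells it gave 0 to 5847 genes and 0 to 4 members, with Ddit3 from -0.16 to 0.0043, Trib3 from 0.12 to 0.68, Chac1 from -0.21 to 0.13 and Psat1 from -0.072 to 0.13. In the Ctrl comparison it gave 31 to 73 genes, with Atf4 from -0.026 to 0.065, Atf5 from -0.17 to 0.043, Trib3 from -0.30 to 0.26, Chac1 from -0.20 to 0.13 and Phgdh from -0.10 to 0.075. Between BV+ and BV- with NRF1 OE it gave 786 to 3182 genes and 0 to 4 members, with Atf4 from -0.0090 to 0.16, Ddit3 from -0.085 to 0.078 and Phgdh from -0.39 to 0.029. For the difference of effects it gave 0 to 33 genes, with Atf4 from -0.029 to 0.14, Trib3 from -0.51 to 0.0060 and Phgdh from -0.38 to 0.034. Where this left a group with 1 library, that library was assumed to vary like the other groups.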
